A study of Mus musculus with 16 samples.

Results

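The 33 genes described here code for the collagens and other matrix proteins of the liver and for markers and signals of its stellate cells. They were taken by gene symbol from a list of fibrillar, network, beaded-filament and fibril-associated collagens, small proteoglycans and matrix glycoproteins, stellate cell markers, platelet-derived growth factor (PDGF) receptors, transforming growth factor beta 1, contractile genes, and enzymes that cross-link or cut matrix with their inhibitors. All 33 were found among the 35502 genes of the count table. Of these, 31 had counts high enough to be tested, and Lox and Timp1 did not.

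Liver RNA was sequenced from 16 individual mice, 4 in each of 4 groups. The mature LERKO and immature LERKO mice carried Cre, a recombinase that cuts out a floxed gene, and were liver-specific knockouts of oestrogen receptor alpha (ERα, gene Esr1). The mature control and immature control mice were floxed and had no Cre. Mature and immature are stage labels that refer to sexual maturity, and the sources used here leave unstated whether they give the stage when the gene was deleted or when the liver was taken. Mature livers and immature livers below mean these labels. In the sample titles every mature liver has a lower number than every immature liver. Stage thus cannot be told apart from anything else that differed between these blocks of numbers. The sources used here do not give the promoter driving Cre, the time of deletion, or the strain, age and sex of the animals. Libraries are numbered within each group in accession order.

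Hepatic stellate cells lie between hepatocytes and the sinusoidal endothelium. In healthy liver they store vitamin A as retinyl esters and keep up a thin matrix. After injury they turn into contractile, collagen-secreting myofibroblasts, driven by transforming growth factor beta and PDGF, and so are the main source of scar matrix in fibrosis. Portal fibroblasts, smooth muscle and endothelial cells also make several of these transcripts. In bulk tissue, fewer cells of a type and less RNA per cell cannot be told apart.

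The promoters of 5 members are shown as examples, and those of other genes named below are not. ERα binds DNA at a palindromic element, and Tgfb1, Lrat and Col6a2 are among the members with an arm of it. Ecm1 was the most abundant member. Promoters were taken from RefSeq (GRCm38.p6), which matched 23 of the 33 members with 25 promoters of 300 bases, from 250 bases before to 50 after the annotated start. Each is printed 5′ to 3′ on the strand of its gene. Capitals mark GGTCA, an arm of the palindrome, or its reverse complement TGACC in Tgfb1 (chr7:25686752-25687051, plus strand), Lrat (chr3:82903925-82904224, minus strand) and Col6a2 (chr10:76623355-76623654, minus strand). In Col5a3 (chr9:20815018-20815317, minus strand) they mark a CCAAT box, and in Ecm1 (chr3:95739520-95739819, minus strand) TATAAA.
Tgfb1: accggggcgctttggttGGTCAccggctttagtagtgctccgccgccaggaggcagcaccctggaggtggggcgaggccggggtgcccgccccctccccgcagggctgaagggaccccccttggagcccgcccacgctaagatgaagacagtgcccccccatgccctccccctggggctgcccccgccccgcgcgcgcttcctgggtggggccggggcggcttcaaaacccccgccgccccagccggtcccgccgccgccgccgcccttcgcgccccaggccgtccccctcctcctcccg
Lrat: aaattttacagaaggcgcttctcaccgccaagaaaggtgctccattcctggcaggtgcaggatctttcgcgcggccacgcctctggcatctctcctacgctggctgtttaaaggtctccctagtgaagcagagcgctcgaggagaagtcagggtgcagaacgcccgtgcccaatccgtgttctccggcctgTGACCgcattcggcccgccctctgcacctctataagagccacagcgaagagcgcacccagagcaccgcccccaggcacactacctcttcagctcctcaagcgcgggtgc
Col6a2: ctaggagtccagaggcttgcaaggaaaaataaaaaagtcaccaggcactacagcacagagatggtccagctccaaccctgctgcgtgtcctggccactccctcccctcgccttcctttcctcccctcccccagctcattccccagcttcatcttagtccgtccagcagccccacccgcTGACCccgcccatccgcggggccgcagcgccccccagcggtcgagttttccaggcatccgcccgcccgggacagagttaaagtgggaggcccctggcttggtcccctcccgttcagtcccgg
Col5a3: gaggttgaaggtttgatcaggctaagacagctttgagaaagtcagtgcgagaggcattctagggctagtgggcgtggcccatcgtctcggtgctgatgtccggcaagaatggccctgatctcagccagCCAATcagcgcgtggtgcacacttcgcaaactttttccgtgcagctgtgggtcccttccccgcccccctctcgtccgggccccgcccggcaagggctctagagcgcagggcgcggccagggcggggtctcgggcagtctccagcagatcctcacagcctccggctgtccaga
Ecm1: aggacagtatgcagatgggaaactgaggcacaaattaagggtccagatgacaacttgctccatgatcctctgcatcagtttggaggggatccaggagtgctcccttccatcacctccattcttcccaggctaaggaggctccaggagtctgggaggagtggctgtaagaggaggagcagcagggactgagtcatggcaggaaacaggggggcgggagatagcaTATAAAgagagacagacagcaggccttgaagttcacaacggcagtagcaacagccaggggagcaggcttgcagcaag

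The palindrome GGTCANNNTGACC, searched on both strands, was in 0 of the 25 promoters, against 0.07% of all 32851 mouse promoters of the same length. A single arm, which also lies within the palindrome, was in 5 of 25 promoters (20%), those of Col6a2, Hgf, Lrat, Sparc and Tgfb1, against 40.5% of all. Its first base lay at position -233 in Tgfb1, -59 in Lrat and -72 in Col6a2 relative to the annotated start. Col6a2 has another annotated start, whose promoter (chr10:76623581-76623880, minus strand) held 0 matches. CCAAT was in 36% of the members' promoters and 37.4% of all, and TATAAA in 12% and 13.6%. The TATAAA of Ecm1 began at position -27. The CArG box, the element of serum response factor, was in 0 of 25, against 1.63% of all. These are matches of letters, not sites shown to be bound.

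Total counts ran from 18123974 to 23213905 per library. Esr1 had 15.8, 19.1, 16.4 and 13.9 CPM (counts scaled to a common library total and composition) in mature LERKO livers, against 75, 66.7, 110 and 76.9 in mature controls. It had 10.7, 12.6, 16 and 12.7 CPM in immature LERKO livers, against 65.8, 84.5, 89 and 55.3 in immature controls, so the genotypes did not overlap at either stage. Summed CPM of 8 hepatocyte genes was 87500 to 153000. Summed CPM of 14 quiescent stellate cell genes was 144 to 452, and that of 8 portal fibroblast genes was 8.41 to 28.2.

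Some libraries stood apart. Skeletal muscle transcripts (15 genes, summed CPM) were at 1.32 to 2.59 in mature LERKO livers, against 912, 403, 0.849 and 59.8 in mature controls. They were at 0.746 to 1.28 in immature LERKO libraries 1 to 3 and 165 in library 4, against 0.552 to 1.14 in immature controls. Acta1, skeletal muscle actin, had 167, 79.8, 0.134 and 16.3 CPM in mature control libraries 1 to 4 and 46.2 CPM in immature LERKO library 4, and Ckm, muscle creatine kinase, had 82.3, 34.1, 0 and 6.39 CPM and 18.5 CPM in the same libraries. Elsewhere Acta1 was at most 0.456 CPM and Ckm at most 0.203 CPM. Of the 15 muscle genes 13 were tested, most of them with enough counts only because of the libraries with high values. Their lower estimates in mature LERKO livers (median log2 fold change -8.85 over the 13) thus restate the values above. Mature control library 3, at 0.849 summed CPM, lay below every mature LERKO library. Mature LERKO library 4 had 77500 summed CPM of 6 acute phase genes, against 5740 to 8740 in the other 15 libraries. For the tested members as a set, medians and counts at an unadjusted p below 0.05 that rest on mature LERKO library 4 are given with and without it. The same holds for the 3 libraries with over 100 CPM of muscle transcripts (mature controls 1 and 2, immature LERKO 4). Mature control library 4, at 59.8 CPM, stayed in those fits, in which mature controls 3 and 4 alone stand for their group. Medians and counts of the role groups, of the endothelial genes and of a wider list of matrix genes are given below with all libraries only. How far these rest on the libraries that stood apart was not tested.

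Levels can be compared between genes per kilobase of exon. Averaged over the 16 libraries, Ecm1, a secreted matrix glycoprotein that holds transforming growth factor beta in its inactive form in mouse liver, had the highest level at 61.2 CPM per kilobase. The small proteoglycans Bgn (biglycan, 17.2) and Dcn (decorin, 16.3), which bind collagen fibrils, came next, then Sparc at 11 and the fibril-associated collagen Col14a1 at 6.12 CPM per kilobase. The lowest tested member was Col5a2 at 0.335. Lox, a cross-linking enzyme of collagen and elastin, had 29 counts over all 16 libraries and was at 0 in 3 of them. Timp1, a metalloproteinase inhibitor known as a marker of activated stellate cells, had 19 counts in all and was at 0 in 7 libraries. A count of 0 allows up to 0.126 to 0.178 CPM, depending on the library, for counting error only. Lox reached at most 0.254 CPM and Timp1 at most 0.186 CPM in any library.

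**Figure D1:**
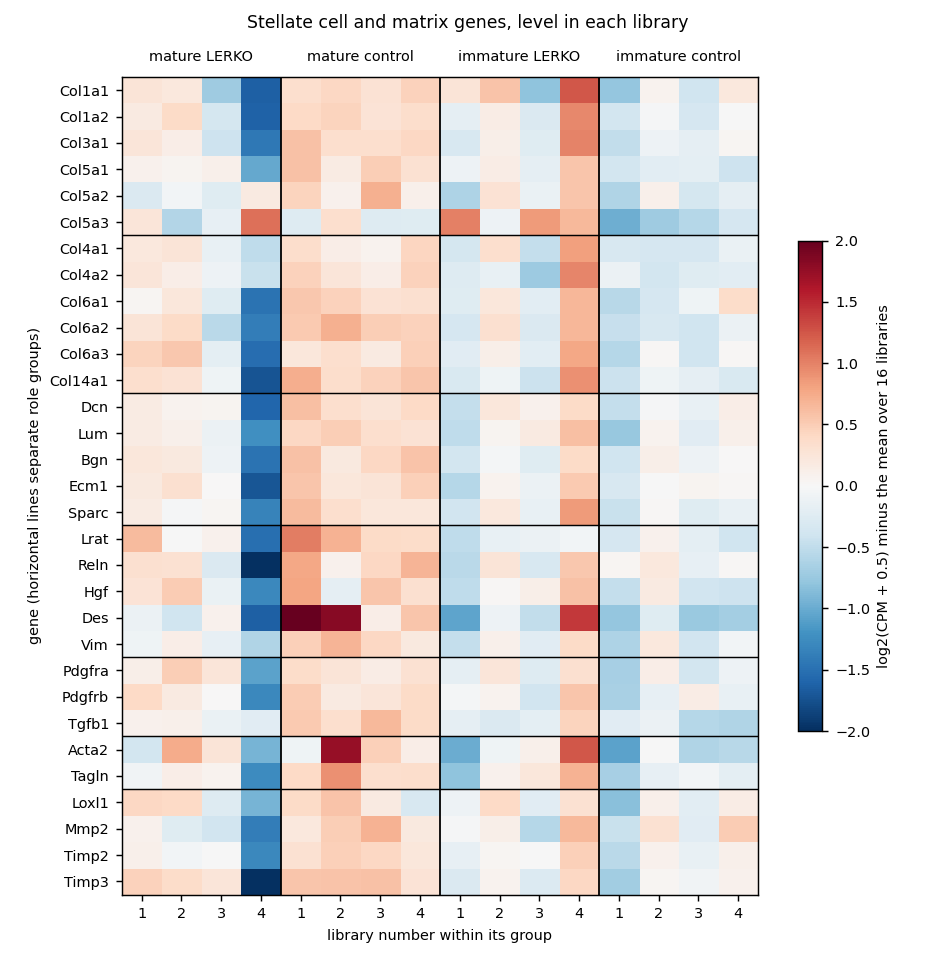
Level of each tested member in each of the 16 libraries, as log2(CPM + 0.5) minus the gene's mean over all libraries, with genes in rows by role and libraries in columns by group. Mature LERKO library 4 is lowest of all 16 libraries for 25 of 31 members, and immature LERKO library 4 is highest of all for 11.

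In mature livers, 30 of the 31 tested members had a lower estimate in LERKO livers than in controls, as had 51.8% of all genes. The median log2 fold change was -0.59, with a range of -1.88 to 0.40, against -0.01 over all 13379 genes. No member passed edgeR's quasi-likelihood test after Benjamini-Hochberg adjustment over all genes (smallest adjusted p = 0.481). Only Esr1, 0.00747% of all genes, was called lower. At an unadjusted p below 0.05, 12 of 31 members were lower and 0 higher, against 3.85% of all genes lower. The 12 were Col3a1, Col5a1, Col6a1, Col6a2, Bgn, Lrat, Des, Vim, Tgfb1, Tagln, Mmp2 and Timp2. In 15 members every LERKO library lay below every control library, against 2.29% of all genes. These 15 included all of the 12 but Bgn and Lrat, and also Col1a1, Col14a1, Dcn, Lum and Sparc. Without mature LERKO library 4 the number was 16. Fewer libraries make such separation easier, and the share of all genes was not computed for that setting.

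The median depended on mature LERKO library 4, which was the lowest of its group for 29 of 31 members. Without it the median was -0.31, 28 members were still negative, and 3 had p below 0.05, which were Des, Vim and Tgfb1, against 8.78% of all genes in either direction. The count was 7, 6 and 6 without mature control library 1, 2 or 3, when 4.24, 6.3 and 5.73% of all genes had such a p. In a fit on the mature groups alone it was 6, against 6.28% of 13015 genes. With the muscle transcripts as a covariate it was 0, against 2.72% of genes, and the median was -0.35. High muscle values lay mostly in mature controls, so the covariate partly stands in for that group. The fit cannot tell them apart. Without the 3 libraries with over 100 CPM of muscle transcripts (mature controls 1 and 2, immature LERKO 4), 29 members were negative with a median of -0.51, and 2 had p below 0.05, against 2.66% of genes. With mature LERKO library 4 left out as well, 28 were negative with a median of -0.28, and 4 had p below 0.05, against 3.32%.

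In immature livers the estimates of all 31 tested members were higher in LERKO livers than in controls, as were 53.2% of all genes, with a median of 0.38 and a range of 0.00 to 1.42, against 0.01 over all genes. None passed the adjusted test in edgeR (smallest adjusted p = 1), which 0.00747% of all genes passed. With DESeq2 0.0972% of genes passed, among them 1 member, Col5a3. In edgeR 1 member, also Col5a3, had an unadjusted p below 0.05, against 1.86% of genes higher at that limit. Groups did not overlap for Col5a1 and Col5a3, both higher, against 0.957% of genes. Immature LERKO library 4, with 165 CPM of muscle transcripts, was the highest of its group for 29 members, and without it 22 members were positive with a median of 0.09. Without all 3 muscle-rich libraries 23 were positive with a median of 0.10, and with the muscle covariate 26 were, with a median of 0.22. The count with p below 0.05 was 8, 2 and 6 without immature LERKO library 1, 2 or 3, against 4.65, 3.82 and 4.66% of all genes in either direction. It was 2 without immature control library 1 or 2, against 1.68 and 3.13% of genes. Without mature LERKO library 4, which enters through the shared spread, it was 5, against 4.02% of genes. In a fit on the immature groups alone it was 2, against 2.66% of genes.

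Among controls, all 31 tested members had higher estimates in mature than in immature livers, as had 53.1% of all genes, with a median of 0.59 and a range of 0.41 to 2.12, against 0.02 over all genes. None passed the adjusted test in edgeR (smallest adjusted p = 0.235, Tgfb1), and 0% of all genes did. At an unadjusted p below 0.05, 11 were higher, against 7.56% of all genes, and these were Col5a1, Col5a2, Col4a1, Col6a2, Col14a1, Lrat, Des, Vim, Tgfb1, Acta2 and Tagln. In 23 members every mature library lay above every immature one, against 6.11% of genes. The count with p below 0.05 was 28 without mature LERKO library 4, which enters through the spread shared by the groups, when 12.8% of all genes had such a p. It was 6 without immature control library 1, against 6.72% of genes. Without the 3 muscle-rich libraries all 31 estimates stayed positive with a median of 0.55, and 7 had p below 0.05, against 4.08% of genes. With mature LERKO library 4 left out as well that count was 24, against 7.36%. With the muscle covariate the median was 0.32, and 1 member had such a p, against 2.76% of genes. In a fit on the control groups alone 29 of 31 members had p below 0.05, against 16.3% of 12922 genes, and Col6a2 (log2 0.94) and Col14a1 (log2 0.78) were called, both with an adjusted p of 0.0463 in edgeR, among 0.0464% of genes. Mature controls enter both this comparison and that of the knockout, so the pair is not independent.

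Among LERKO livers, 28 of 31 members had lower estimates in mature than in immature livers, as had 49.6% of all genes, with a median of -0.24 against 0.00 over all genes. None had p below 0.05, against 1.84% of genes lower and 3.09% higher, and the groups overlapped for every member, against 0.635% of genes without overlap and lower and 0.882% without overlap and higher. The median was -0.37, -0.38 and -0.01 without mature LERKO library 1, 2 or 4, and 0.02 without immature LERKO library 4. With p below 0.05 there were 1, 1 and 2 members without mature LERKO library 1, 2 or 4, and 1 without immature LERKO library 3, against 7.12, 4.43, 5.82 and 4.39% of all genes. Without the 3 muscle-rich libraries 16 members were positive and 15 negative, with a median of 0.01, and with the muscle covariate the median was -0.09. Without mature LERKO library 4 and the muscle-rich libraries, 27 members were positive with a median of 0.24, and 6 were higher and 1 lower at that limit, against 5.54% of genes in either direction.

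**Figure D2:**
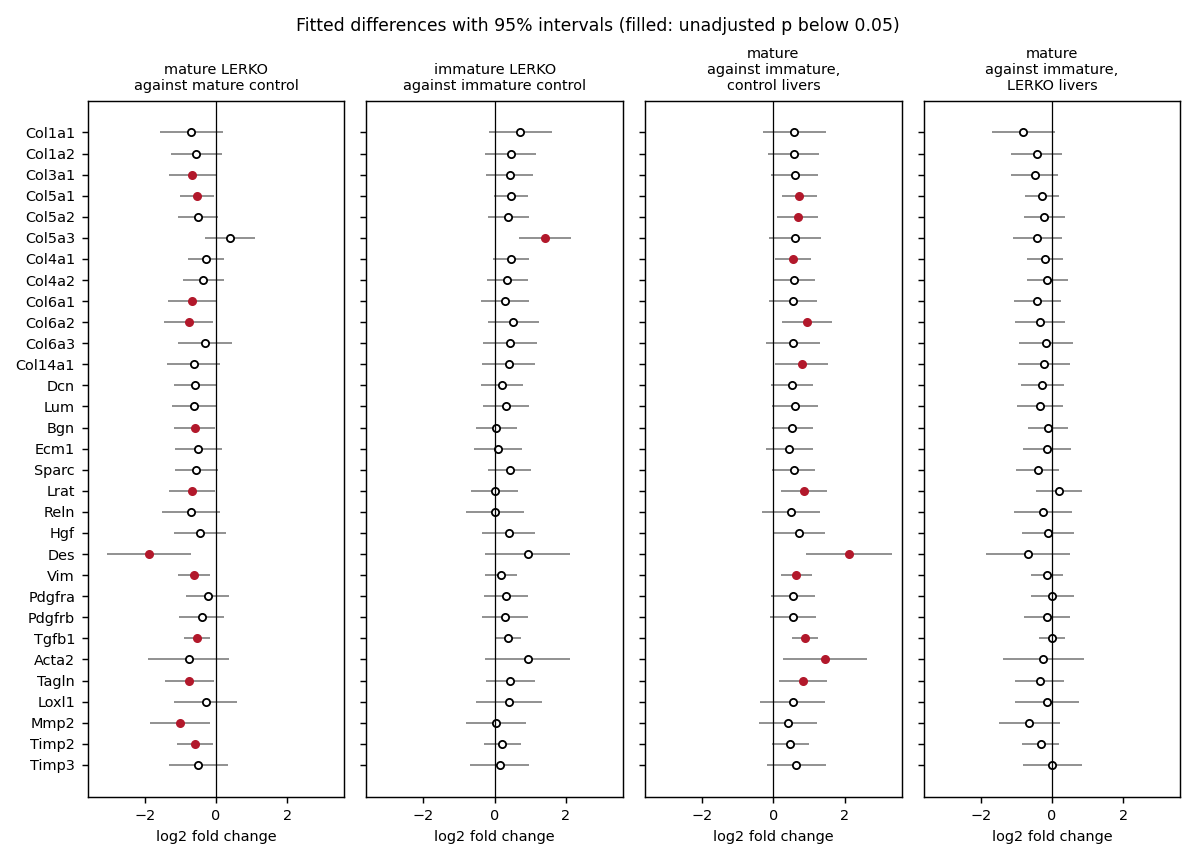
Log2 fold change of each tested member with its 95% interval in the 4 comparisons between 2 groups, from edgeR. In mature livers 30 of 31 estimates lie below 0 for LERKO against control, in immature livers all 31 lie above 0, and no member passes the adjusted threshold.

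The knockout effect itself was compared between stages. The difference, mature minus immature, was negative for 31 of 31 members, against 51.3% of all genes, with a median of -0.90. Again none passed after adjustment in edgeR (smallest adjusted p = 0.579, Tgfb1). Unadjusted p was below 0.05 for 16 members, against 4.34% of genes with a negative difference. After adjustment 0% of all genes were called. The count was 9 without mature LERKO library 3 and 5 without immature LERKO library 4, against 6.36 and 3.43% of all genes in either direction. It was 6 and 8 without immature control library 1 or 3, against 4.84 and 7.19%. Without the 3 muscle-rich libraries it was 2, against 1.45% of genes, with a median of -0.60. With mature LERKO library 4 left out as well it was 3, against 1.98%, with a median of -0.33. With the muscle covariate it was 1, against 1.36%, with a median of -0.51. All 4 groups enter this value, so it repeats the comparisons above.

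Averaged over genotypes, mature livers had 29 positive estimates (median 0.20), against 55.3% of all genes, and 2 members with p below 0.05, Tgfb1 and Lrat, against 5.43% of genes higher. Without mature LERKO library 4 that count was 14 and the median 0.31, and without immature LERKO library 4 it was 8 and 0.32, when 9.95 and 11.6% of all genes had such a p in either direction, against 7.92% with all libraries. Without the muscle-rich libraries and mature LERKO library 4 the count was 23, against 11.6% of genes, and the median 0.40. The count was 1 without mature LERKO library 1, mature control library 1 or immature LERKO library 1, against 8.23, 6.22 and 7.69% of genes, and the median was 0.14 without the first of these. With the muscle covariate the median was 0.10, with 1 such member against 5.02% of genes.

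Averaged over stages, LERKO livers had 24 negative estimates (median -0.12), against 49.1% of all genes, but this direction turned on 1 library. Without mature LERKO library 4, 18 members were positive and 13 negative, with a median of 0.02. With each other library left out the median was -0.24 to -0.05. It was -0.21 without the 3 muscle-rich libraries, -0.08 with mature LERKO library 4 left out as well, and -0.05 with the muscle covariate. The only member with p below 0.05 was Col5a3, against 2.02% of genes higher. Without mature LERKO library 1 that count was 3, and without immature LERKO library 4 it was 4, against 6.06 and 4% of genes in either direction. Without the muscle-rich libraries and mature LERKO library 4 that count was 2, against 3.63%.

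Any difference among the 4 groups had p below 0.05 for 7 members, against 6.6% of genes, and the smallest adjusted p was 0.384 in edgeR. The 7 became 14 without mature LERKO library 4 and 11 without immature LERKO library 4, against 8.78 and 7.75% of all genes. They became 3 and 4 without mature control library 1 or 2, against 4.62 and 5.88%, and 3 without the muscle-rich libraries, against 3.67%. With these and mature LERKO library 4 left out the count was 13, against 5.37%, and with the muscle covariate it was 2, against 3.56%.

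The fibrillar collagens form the tensile fibres of the matrix. Their median log2 fold change was -0.55 for LERKO against control in mature livers and 0.45 in immature livers, and 0.61 and -0.42 for mature against immature in controls and in LERKO livers. Col3a1, the collagen III chain and the member of this group with the highest mean CPM, had 29.4, 27.2, 18.5 and 8.94 CPM in mature LERKO livers, against 37.5, 31.7, 31.4 and 33.2 in mature controls. It had 19.9, 27.1, 21 and 50 CPM in immature LERKO livers, against 17.6, 23.1, 21.8 and 25.5 in immature controls. In mature livers every LERKO value was below every control value, with library 4 the lowest, whereas in immature livers the ranges overlapped and library 4 of the LERKO group stood alone at the top. The log2 fold change in mature livers was -0.67 (SE 0.31, edgeR adjusted p = 0.683). Col1a1 and Col1a2, the chains of collagen I, ran from 2.13 to 18.9 and from 3.38 to 22.6 CPM over the 16 libraries, and Col5a2, of collagen V, from 1.84 to 5.36 CPM. For each of the chains Col1a1 and Col1a2 the lowest value was in mature LERKO library 4 and the highest in immature LERKO library 4. Their log2 fold changes for LERKO were -0.69 and -0.55 in mature livers and 0.71 and 0.44 in immature livers, with edgeR adjusted p of 0.728 and 0.729 in mature livers and 1 in immature livers.

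Col5a1 codes for a collagen V chain, which starts collagen fibrils and limits their width. It had 7.62, 7.42, 7.66 and 3.26 CPM in mature LERKO livers, against 10.9, 8.04, 10.2 and 8.92 in mature controls. In immature livers it had 6.58, 8, 6.25 and 10.7 CPM in LERKO mice, against 5.44, 6.09, 6.18 and 5.22 in controls. At each stage the genotypes did not overlap, LERKO livers being the lower at the mature stage and the higher at the immature stage. Mature controls also lay above all immature controls, with a log2 difference of 0.73 (SE 0.23, edgeR adjusted p = 0.292). For the knockout the log2 fold change was -0.55 (SE 0.23, edgeR adjusted p = 0.645) in mature and 0.46 (SE 0.23, adjusted p = 1) in immature livers.

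Col5a3, another collagen V chain, was the member with the smallest p for the knockout in immature livers. It had 11.5, 5.06, 10.3 and 8.86 CPM in immature LERKO livers, against 2.54, 3.15, 3.52 and 4.2 in immature controls. Every LERKO value was above every control value. The estimate was 2.67-fold (95% interval 1.62 to 4.42), which edgeR put at an adjusted p of 1 and DESeq2 at 0.0327. The log2 fold change was 1.42 with all libraries and 1.43 without the muscle-rich ones. In mature livers Col5a3 had 6.55, 3.46, 4.82 and 12.3 CPM in LERKO mice, against 4.47, 7.02, 4.47 and 4.54 in controls. Those ranges overlapped (log2 0.40, SE 0.33, edgeR adjusted p = 0.813), and library 4, the lowest of its group for most members, was the highest for this one and for Col5a2. The difference between the stages was -1.02 (SE 0.47, edgeR adjusted p = 0.774).

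Collagens IV and VI make the basement membrane network and beaded filaments, and collagen XIV sits on fibril surfaces. Their median log2 fold change was -0.49 for LERKO in mature livers, 0.41 in immature livers, and 0.57 for mature against immature controls. Col14a1 had 50.5, 48.8, 37.4 and 11.6 CPM in mature LERKO livers, against 66.4, 50.8, 54.8 and 58.6 in mature controls. It had 32.1, 37.5, 29.3 and 75.5 CPM in immature LERKO livers, against 29.2, 37.2, 34.9 and 32.1 in immature controls. The first 3 immature LERKO libraries thus lay between 29.3 and 37.5 CPM, about the range of their controls, and the fourth alone was far above it. Mature LERKO values lay below those of controls, but libraries 1 and 2 only just below the lowest control. For LERKO in mature livers it came to -0.63 on the log2 scale (SE 0.35, edgeR adjusted p = 0.711), and 0.79 (SE 0.35, edgeR adjusted p = 0.471) for mature against immature controls. Col6a2, a collagen VI chain, ran from 1.6 to 8.41 CPM, with log2 fold changes of -0.77 (SE 0.33, edgeR adjusted p = 0.645) for LERKO in mature livers and 0.95 (SE 0.33, adjusted p = 0.36) for mature against immature controls. Col6a1 and Col6a3 ran from 2.49 to 12.8 and from 1.78 to 10.8 CPM. Col4a1 and Col4a2 ran from 13.7 to 35.1 and from 8.53 to 29 CPM, each highest in immature LERKO library 4. The genes Col4a1 and Col4a2 lie head to head and overlap, so reads there may be split.

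The proteoglycans and matrix glycoproteins (Dcn, Lum, Bgn, Ecm1, Sparc) had a median of -0.59 for LERKO in mature livers, within a narrow range of -0.61 to -0.50. In immature livers the median was 0.20. Ecm1 had 168, 183, 147 and 44.4 CPM in mature LERKO livers, against 215, 172, 176 and 204 in mature controls. In immature livers it had 98.7, 154, 135 and 211 CPM in LERKO mice, against 117, 145, 152 and 148 in controls. Both pairs of groups overlapped, and mature LERKO library 4 was the lowest of all 16 libraries. On the log2 scale the knockout effect was -0.50 (SE 0.31, edgeR adjusted p = 0.737) in mature livers and 0.09 (SE 0.31, adjusted p = 1) in immature livers, with 95% intervals of 0.448 to 1.12 and 0.674 to 1.68 as folds. Bgn ran from 35.8 to 150 CPM, Dcn from 29.9 to 138, Sparc, which binds collagen, from 15.3 to 72.1, and Lum, lumican, from 1.66 to 7.1 CPM. Each of these 4 was lowest in mature LERKO library 4.

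The stellate cell markers were Lrat, which esterifies retinol, Reln, a secreted glycoprotein, Hgf, a growth factor for hepatocytes, and the intermediate filaments Des and Vim. All 5 had negative estimates for LERKO in mature livers (median -0.68), as had 51.8% of all genes. Lrat, Des and Vim had p below 0.05, against 3.85% of all genes lower. Without mature LERKO library 4, Des and Vim kept such a p and Lrat did not, against 8.78% of all genes in either direction. With the muscle covariate no member had such a p, against 2.72% of genes. In immature livers the median was 0.17, and Lrat had a fold of 1 (95% interval 0.636 to 1.57). Reln had 62.1, 61.3, 40.7 and 9.71 CPM in mature LERKO livers, against 85, 52.8, 66.4 and 80 in mature controls. It had 34, 59.8, 39.8 and 72.5 CPM in immature LERKO livers, against 50.9, 57.4, 44.5 and 50.4 in immature controls. The groups overlapped at both stages, and mature LERKO library 4 was far below all others. The log2 fold change in mature livers was -0.71 (SE 0.38, edgeR adjusted p = 0.711). Lrat ran from 4.56 CPM in mature LERKO library 4 to 29 CPM in mature control library 1. Its log2 fold change was -0.68 (SE 0.30, edgeR adjusted p = 0.674) for LERKO in mature livers and 0.87 (SE 0.31, adjusted p = 0.37) for mature against immature controls. Hgf ran from 2.07 to 10.3 CPM in the same 2 libraries.

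Des, desmin, is made by stellate cells and also by skeletal and smooth muscle. It had 5.84, 4.72, 6.79 and 1.72 CPM in mature LERKO livers, against 30.9, 23.6, 7.01 and 9.55 in mature controls. It had 2.81, 5.92, 4.35 and 17.7 CPM in immature LERKO livers, against 3.53, 5.32, 3.62 and 3.8 in immature controls. The 3 highest values were in the 3 libraries with over 100 CPM of skeletal muscle transcripts. The log2 fold change was -1.88 (SE 0.56, edgeR adjusted p = 0.481) for LERKO in mature livers and 2.12 (SE 0.56, adjusted p = 0.25) for mature against immature controls. Without those 3 libraries these were -0.79 and 1.02 (edgeR adjusted p = 1 and 0.998). The 6 smooth muscle genes, Des among them, summed to 17, 23.7, 19.2 and 7.05 CPM in mature LERKO livers, against 51.3, 57.2, 26 and 22.5 in mature controls, and their part in the result was not tested.

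Vim, vimentin, the filament of mesenchymal cells in general, had 15.9, 18.6, 15.1 and 11 CPM in mature LERKO livers, against 23.8, 27.3, 22.7 and 19.4 in mature controls. It had 12, 18.2, 14.4 and 22.3 CPM in immature LERKO livers, against 10.9, 19.6, 12.9 and 16.2 in immature controls. The mature groups did not overlap, and the immature ones did. The fold in mature livers was 0.651 (95% interval 0.479 to 0.885, edgeR adjusted p = 0.554). Vim was among the 3 of 31 members with p below 0.05 without mature LERKO library 4, when 8.78% of all genes had such a p in either direction. Neither Vim nor any other member had such a p with the muscle covariate, against 2.72% of genes.

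Tgfb1 codes for the ligand that drives collagen synthesis in stellate cells, and Pdgfra and Pdgfrb for receptors that drive their growth. Tgfb1 had 9.54, 9.66, 8.06 and 7.58 CPM in mature LERKO livers, against 13.1, 11.4, 14.2 and 11.8 in mature controls. It had 7.82, 7.25, 7.7 and 12.4 CPM in immature LERKO livers, against 7.52, 8.16, 5.88 and 5.73 in immature controls. The 4 mature controls were above all mature LERKO livers and all immature controls, and of the other 12 libraries only immature LERKO library 4 reached their range. Group means were 8.71 ± 1.05 CPM in mature LERKO livers and 12.6 ± 1.26 in mature controls, and 8.8 ± 2.44 in immature LERKO livers and 6.82 ± 1.21 in immature controls (SD, n = 4 each).

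Mature controls had 1.85-fold the Tgfb1 of immature controls (95% interval 1.43 to 2.38), with an adjusted p of 0.235 in edgeR and 0.00207 in DESeq2, which called 0.553% of genes there. For LERKO against control in mature livers the fold was 0.692 (95% interval 0.538 to 0.889, edgeR adjusted p = 0.486). Both kept their size without the muscle-rich libraries (log2 0.92 and -0.57) and without mature LERKO library 4 as well (0.93 and -0.51). In LERKO livers the log2 difference between stages was -0.01 (95% interval as a fold 0.769 to 1.28). DESeq2 also called Tgfb1 for any difference among the 4 groups (adjusted p = 0.0164), with 0.516% of genes. The receptors had log2 fold changes of -0.23 (Pdgfra) and -0.41 (Pdgfrb) for LERKO in mature livers and 0.55 each between control stages, none with p below 0.05. Pdgfra ran from 1.6 to 5.69 CPM and Pdgfrb from 2.01 to 8.52 CPM.

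**Figure D3:**
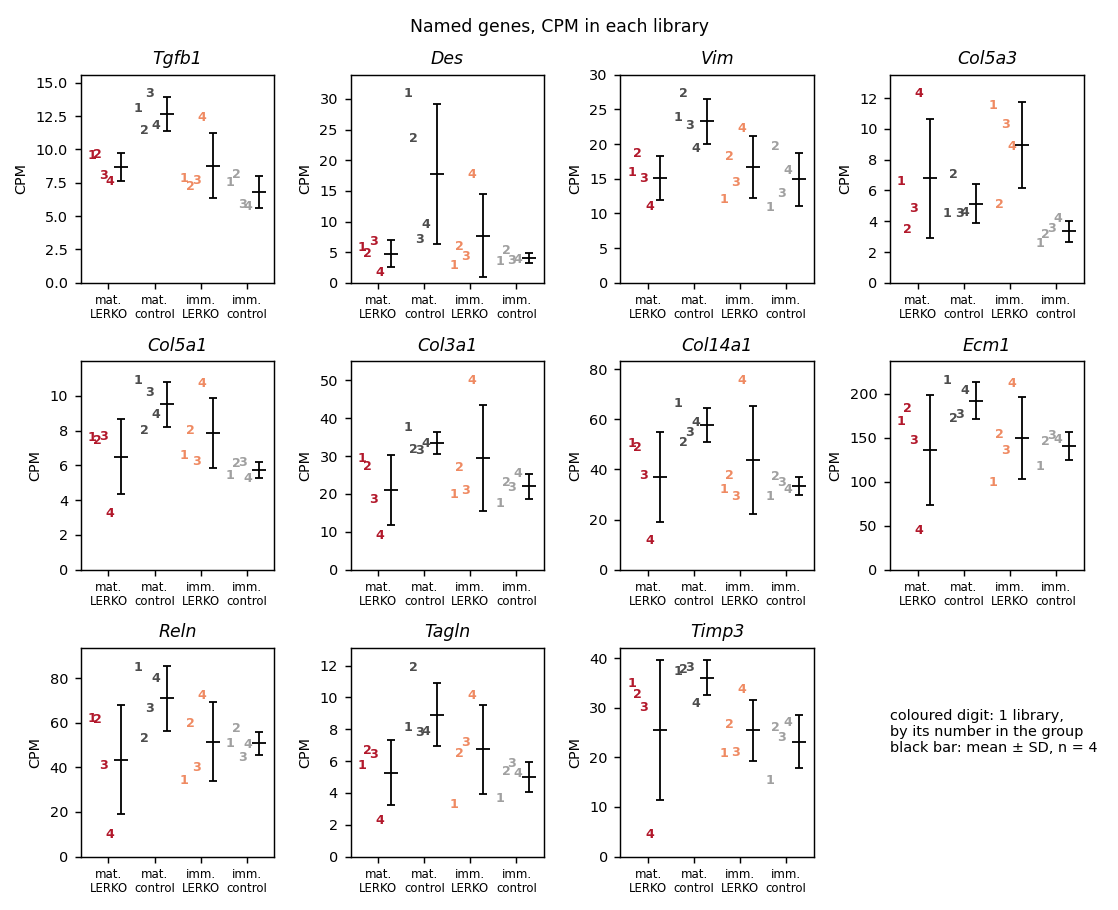
CPM of the 11 members given by library, with each library as its number and the mean of each group as a line; each panel has its own linear axis from 0. The 4 mature controls stand above all mature LERKO livers for Tgfb1 (11.4 to 14.2 against 7.58 to 9.66 CPM), and the immature LERKO livers above all immature controls for Col5a3.

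The contractile genes Acta2, smooth muscle actin, and Tagln, transgelin, mark smooth muscle and activated stellate cells. Tagln had 5.74, 6.66, 6.39 and 2.25 CPM in mature LERKO livers, against 8.12, 11.9, 7.77 and 7.87 in mature controls. It had 3.27, 6.45, 7.14 and 10.1 CPM in immature LERKO livers, against 3.63, 5.32, 5.83 and 5.22 in immature controls. The mature groups did not overlap, and mature control library 2 had the highest value. Tagln gave a log2 fold change of -0.75 (SE 0.32, edgeR adjusted p = 0.645) for LERKO in mature livers, and one of 0.83 (SE 0.32, adjusted p = 0.408) for mature against immature controls. Tagln overlaps Pcsk7, which had 7878 counts in all against 2120 for Tagln, on the other strand, so its level is uncertain, since the strand setting of the counting is unknown. Acta2 had 11.7 CPM in mature control library 2 and 1.24 to 8.13 CPM in the other 15 libraries.

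Among the enzymes and inhibitors, Mmp2, which cuts denatured collagen and collagen IV, had the most negative estimate for LERKO in mature livers, at 0.495-fold (95% interval 0.276 to 0.888, edgeR adjusted p = 0.645). It was a low gene, at 0.355 to 3.13 CPM. Timp2, an inhibitor that also takes part in activating Mmp2, ran from 4.38 to 16 CPM, and Loxl1, a cross-linking enzyme, from 0.355 to 1.91 CPM. Timp3, a matrix-bound metalloproteinase inhibitor, had 34.9, 32.6, 30.1 and 4.5 CPM in mature LERKO livers, against 37.4, 37.8, 38.2 and 30.8 in mature controls. In immature livers it had 20.7, 26.6, 20.9 and 33.7 CPM in LERKO mice, against 15.4, 26.1, 24.1 and 27 in controls. Mature LERKO libraries 1 to 3 were near their controls, and library 4 was the lowest of all. The log2 fold change in mature livers was -0.49 (SE 0.39, edgeR adjusted p = 0.798). Timp3 lies within Syn3, on the other strand, which had 225 counts against its 9035.

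Summed over the members, the same libraries stood apart. Their summed CPM was 810, 803, 664 and 256 in mature LERKO livers, against 1060, 887, 878 and 949 in mature controls. It was 526, 746, 615 and 1060 in immature LERKO livers, against 524, 692, 627 and 680 in immature controls. The spread within a group was wider in the LERKO groups, each of which holds a library that stood apart. The median coefficient of variation over members was 44.9% in mature LERKO livers and 11.8% in mature controls. Over all genes these were 18% and 11.5%. In immature livers the members' median was 33.3% in LERKO livers and 20.5% in controls, against 17.3% and 13.2% over all genes. Library 4 was the lowest of the mature LERKO group for 29 of 31 members and the highest of the immature LERKO group for 29. The coefficients were not computed without these libraries.

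Endothelial transcripts (10 genes) had a like pattern, at 286, 282, 262 and 110 summed CPM in mature LERKO livers, against 362, 336, 360 and 251 in mature controls. They were at 168, 268, 202 and 340 in immature LERKO livers, against 171, 257, 169 and 193 in immature controls. All 10 had negative estimates for LERKO in mature livers (median -0.43) and positive ones between control stages (median 0.68), and the part of this list in the members' values was not tested. Kupffer cell and macrophage transcripts (8 genes) were instead highest in mature LERKO library 4, at 363 CPM, against 118 to 329 in the others.

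**Figure D4:**
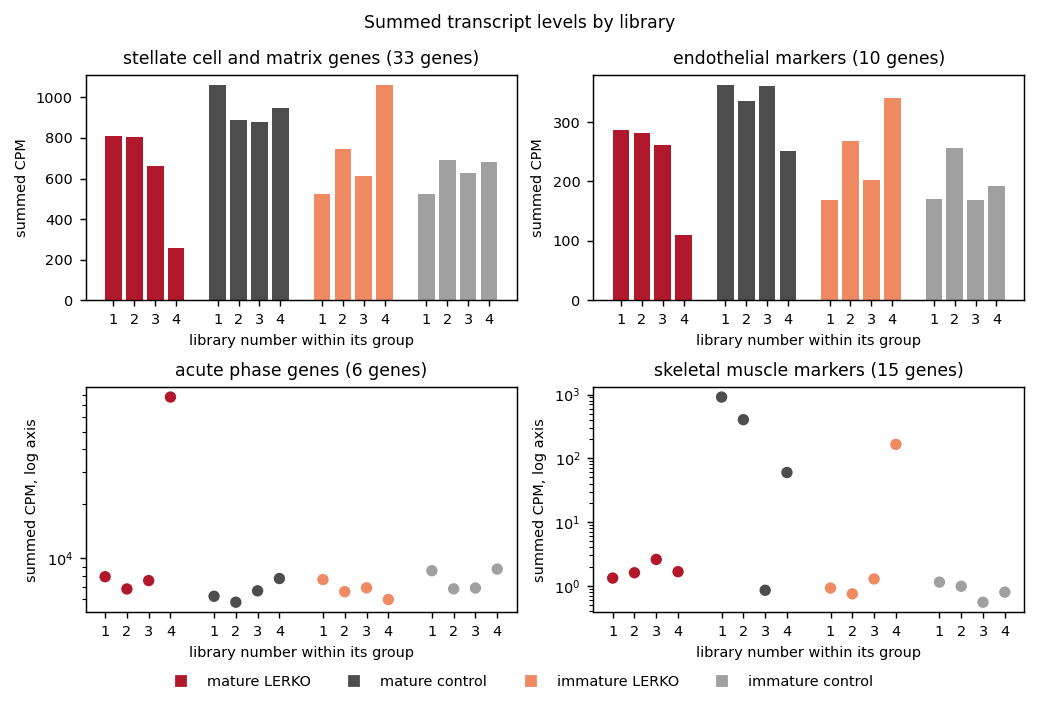
Summed CPM per library, by group, of the 33 members and 10 endothelial genes (bars, linear axes from 0) and of 6 acute phase and 15 muscle genes (points, log axes). Member sums are lowest in mature LERKO library 4 (256) and highest at 1060 in mature control library 1 and immature LERKO library 4, which had 912 and 165 CPM of muscle transcripts. Mature control libraries 2 and 3 had member sums of 887 and 878, with 403 and 0.849 CPM of muscle transcripts.

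**Figure D5:**
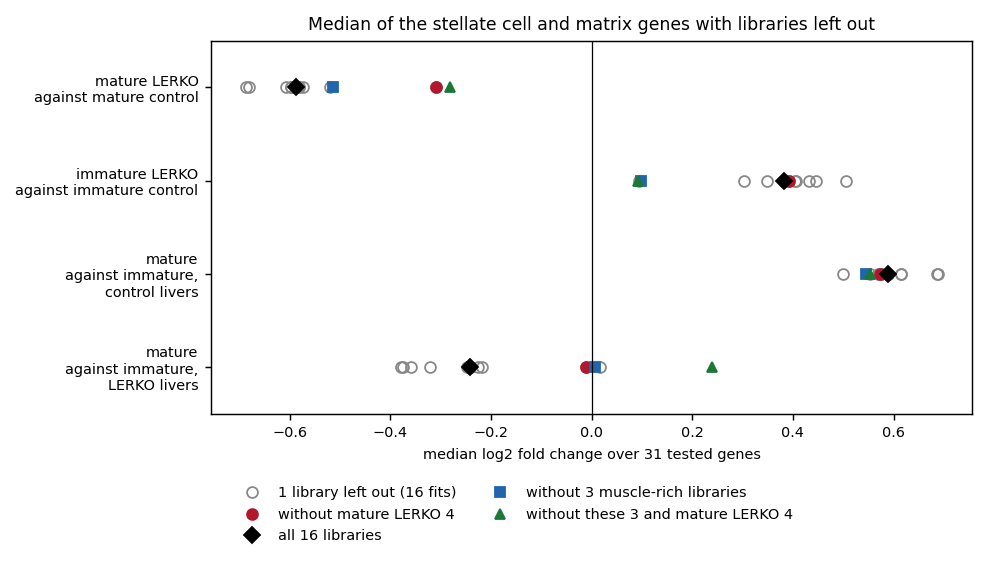
Median log2 fold change over the 31 tested members in each comparison between 2 groups, with all libraries and with each library left out in turn or with the libraries that stood apart left out. For LERKO against control in mature livers the median stays below 0 and moves to -0.31 without mature LERKO library 4, and in immature livers it moves to 0.09 without immature LERKO library 4.

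A wider list of 111 other genes of collagen chains, matrix glycoproteins, collagen-modifying enzymes, proteases with their inhibitors, and the transforming growth factor beta and PDGF pathways had 89 tested genes and none past the adjusted threshold in any comparison in edgeR. For LERKO in mature livers 62 were negative (median -0.22), with 3 higher and 9 lower at p below 0.05, against 3.45% of all genes higher and 3.85% lower. In immature livers 62 were positive (median 0.17), with 2 higher and 1 lower, against 1.86 and 0.897% of all genes. Between control stages 61 were positive (median 0.39), with 17 higher and 2 lower, against 7.56 and 2.29% of all genes. Between LERKO stages 59 were negative (median -0.12), with 2 higher and 3 lower, against 3.09 and 1.84% of all genes. The smallest p for LERKO in mature livers was that of Tgfbr2, the type II receptor of the ligand Tgfb1, at a log2 fold change of -0.64 (edgeR adjusted p = 0.544). Between control stages it was that of Efemp2, an elastic fibre protein, at 0.72 (edgeR adjusted p = 0.336). The matrix glycoproteins (36 tested) had medians of -0.42 for LERKO in mature livers and 0.51 between control stages, whereas the pathway genes (22 tested) had -0.22 and 0.12.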

How the data were processed

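Liver RNA from 16 individual mice (per the labels) was made into stranded, paired-end mRNA libraries. The deposited table holds whole-number counts of 35502 genes. In 5 columns it also holds 10 values of 2 predicted genes that are not whole, best described as estimated counts in the deposited file, and these were rounded. The submitters' processing notes name STAR, limma, R 4.05 and the build mm10. The sources used here do not give what each did, which program counted reads, or its annotation and strand setting.

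The 33 members, the other lists and the alternatives were chosen with earlier results of these data known. Genes were kept by filterByExpr (minimum count 10, minimum total 15), leaving 13379, and tested with edgeR 4.0.16 (R 4.3.3) by quasi-likelihood in 1 model of 4 groups, with TMM factors of 0.852 to 1.07. The Benjamini-Hochberg adjustment covered all of these genes, and a call needed an adjusted p below 0.05. SEs are the fold change over the root of its F statistic. Levels are TMM-scaled CPM. The common coefficient of biological variation was 21.2%. DESeq2 1.42.0 and limma-voom (limma 3.58.1) were alternatives, with other scaling, filters, sample sets, a muscle covariate, and libraries left out. The fit was also run on simulated data with known changes. The outcome is not given here, so how often it would call changes of the members' size is left unstated. Values in every library are given for members past the threshold, for up to 3 per direction with the smallest unadjusted p below 0.05 in each comparison of 2 groups, and for the member with the highest mean CPM in each role group, 11 in all. Mmp2, Acta2, Lrat and others given by a single value were named after their values were seen. Exon lengths and overlaps come from GENCODE vM21 (GRCm38), which matched 35465 gene IDs. P-values measure the spread between these mice.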

Additional observations from a re-analysis of the deposited data

Results flagged for a closer look

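Within groups of 4 libraries, a value was singled out where its gap to the nearest other took up more of the group's range than Dixon's 95% limit for 4 samples allows. Of 44 groups tested for the 11 members given by library, 7 held such a value. Chance gives about 5% of independent groups. These groups are not independent, since the members were measured in the same libraries and some were chosen by small p in these data.

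In mature LERKO livers, library 4 was low for Col5a1 (3.26 CPM, the others 7.42 to 7.66) and for Timp3 (4.5 CPM, the others 30.1 to 34.9). The same library had 77500 summed CPM of 6 acute phase genes and 110 of 10 endothelial genes, against 262 to 286 endothelial CPM in the other 3, and their part in the low values was not tested. In mature controls, library 4 was low for Timp3 at 30.8 CPM (the others 37.4 to 38.2), and library 2 was high for Col5a3 at 7.02 CPM (the others 4.47 to 4.54) and for Tagln at 11.9 CPM (the others 7.77 to 8.12). Mature control library 2 also had the highest Acta2, at 11.7 CPM, and 403 CPM of muscle transcripts. In immature LERKO livers, library 4 was high for Tgfb1 at 12.4 CPM (the others 7.25 to 7.82), with 165 CPM of muscle transcripts. In immature controls, library 2 was high for Des at 5.32 CPM (the others 3.53 to 3.8), with 0.981 CPM of muscle transcripts.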

How the results depend on the processing

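The count of members past the adjusted threshold was 0 in every comparison with edgeR on all groups, also with other scaling factors, other filters, an adjusted threshold of 0.1, limma-voom, the muscle covariate and each library left out. With DESeq2 it was 1 for LERKO against control in immature livers, 1 between control stages and 1 for any difference among the 4 groups. In a fit on the 2 control groups alone it was 2. The median of the members kept its sign for LERKO against control at either stage and between control stages in every alternative run. Leaving out 1 library at a time gave -0.69 to -0.31 in mature livers, 0.09 to 0.51 in immature livers, 0.50 to 0.69 between control stages and -0.38 to 0.02 between LERKO stages. The last became 0.24 without the muscle-rich libraries and mature LERKO library 4, an alternative added after seeing the data, and its sign thus rests on those libraries. With the muscle covariate the medians were -0.35 in mature livers and 0.32 between control stages, with 0 and 1 members at p below 0.05. That covariate partly stands in for the mature control group, and these fits cannot tell them apart. Low counts limit Lox and Timp1. No paired analysis was possible because each library is from a separate mouse and the labels do not match any LERKO mouse to a control.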
